A study of Mus musculus with 36 samples.

Results

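Tumour cells of a mouse glioma line were taken from co-culture with macrophages 24 h after myelin debris was added and were compared with the same line taken from co-culture at 0 h. The comparison uses 6 of the 36 libraries of the study, 3 per time, chosen by the titles that name co-culture, tumour cell and the hour, and their running number (001, 002 or 003) served as a block. The study sequenced RNA in bulk from bone marrow derived macrophages and from this tumour line, each grown alone (mono-culture) or together (co-culture), at 0, 6 and 24 h. All tumour libraries come from 1 line, named PDG-Ink4a Recurrent, of a model in which Nestin-positive progenitors are made to express PDGFB and lack Ink4a/Arf, so the 0 h cells carry these alterations too. The 24 h group was labelled as 24 hour myelin debris and the 0 h group as Control. No label tells how long cells taken at 0 h had been in culture, so myelin and time in culture cannot be told apart. The labels also do not say that the libraries came from separate cultures. The p-values therefore measure the spread between libraries, which may be technical. This spread was estimated from all 18 tumour libraries in 1 fit, and not from the 6 alone.

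Cells that sense interferon turn on a shared set of antiviral genes through a complex that includes Stat2 and Irf9, which bind a promoter element rich in GAAA. Cells that take up sterol lower the enzymes of cholesterol synthesis through SREBP2, and raise exporters such as Abca1 through LXR. Growth factor receptors such as those for PDGF and EGF signal through MAP kinases, which switch on immediate early genes and, with them, phosphatases and Sprouty proteins that damp the signal.

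The 6 libraries held 11614308 to 14333204 counts. Levels of single genes below are CPM (counts scaled to a common library size) after TMM, a normalisation that corrects for library composition. Summed levels of marker lists and the macrophage RNA estimates use CPM without TMM. Per-library values are given in the order of numbers 001, 002 and 003. Number 001 stood apart. Its libraries lay on one side of the first principal component of the 18 tumour libraries, which held 52% of the variance, and those of 002 and 003 on the other. Of the 6 libraries compared, those of 001 also had more counts in the gene CT010467.1. Its share was 2.13% at 24 h and 3.23% at 0 h in 001, against 0.309% to 0.536% in 002 and 003. The effect of this on the results was not tested. Macrophage RNA, estimated as the median over 24 marker genes of their level as a share of that in macrophages grown alone, was 0.0886%, 5.82% and 5.77% at 24 h, against 0.105%, 9.25% and 6.27% at 0 h. The estimate depended on the measure: in numbers 002 and 003 the mean over the markers gave 10.6% and 10.15% at 24 h, against 18.2% and 9.83% at 0 h, and the median over 50 macrophage genes chosen from these data gave 1.88% and 1.77% at 24 h, against 2.63% and 1.87% at 0 h. Number 001 was at 0.248% or lower by each. The pan-leukocyte gene Ptprc and the macrophage genes Adgre1 and Cybb were close to 0 in number 001 and present in the others. In bulk samples fewer cells of a type and less RNA per cell cannot be told apart.

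The label calls the cells tumour cells, and markers of glioma progenitors were present only in part. The PDGF receptor alpha gene Pdgfra and the proteoglycan gene Cspg4 were well expressed, as was vimentin, a gene of the mesenchymal glioma state. By contrast, the glial genes Gfap and Sox10 had 1 and 2 counts summed over the 3 libraries at 24 h, against 2 and 0 counts at 0 h. Olig1 and Ptprz1 had 0 counts in both groups. Fibroblast and pericyte markers were abundant, and their summed level over 12 genes was 23670 to 32420 CPM at 24 h, against 21060 to 25410 CPM at 0 h. Cdkn2a, the gene that encodes Ink4a and Arf, had 2.45, 2.33 and 2.39 CPM at 24 h, against 1.90, 1.10 and 2.17 CPM at 0 h. Which part of Cdkn2a these counts come from was not analysed here.

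After 24 h the tumour cells had higher interferon-response genes and lower ribosome biogenesis genes. Some sterol export and fatty acid oxidation genes were higher, and some growth-signal, antioxidant and cholesterol synthesis genes were lower, with the counts given below. Of 13603 genes tested, 1263 (9.28%) passed an adjusted p of 0.05 in edgeR's quasi-likelihood test with Benjamini-Hochberg adjustment, 579 (4.26%) higher and 684 (5.03%) lower at 24 h. A change of 2-fold or more was seen in 242 of them (1.78% of genes tested). The shares of 4.26% higher and 5.03% lower are the background for the list counts below. The change had the same sign within each of the 3 numbers for 1256 of the 1263 genes. Without the block, 107 genes passed, 65 higher and 42 lower, and in libraries 002 and 003 alone 3143 passed, 1547 higher and 1596 lower. The count of genes was also moved by single libraries: 502 passed without the 24 h library 001, 741 without 002 and 409 without 003, and 217 passed without the 0 h library 002 and 307 without 003. Of the 98 called genes given by the naming rule, 45 passed in every fit that left out 1 of the 6 libraries.

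Rises and falls were ranked among called genes with a mean of at least 10 CPM in a group and the same sign in each number. Predicted genes and genes over 20 times higher in macrophages were left out. By this rule the largest rises were in the antiviral enzyme gene Rsad2, the immunity-related GTPase gene Iigp1 and the chemokine gene Cxcl10. Igsf10, Ifit1, Aspn, Oas2 and Apod followed. Rsad2 had 28.2, 8.33 and 5.41 CPM at 24 h, against 1.99, 1.50 and 0.963 CPM at 0 h, a log2 fold change of 3.04 ± 0.50 (SE, edgeR quasi-likelihood adjusted p = 0.00354). Apod, an apolipoprotein that carries small lipids, had 135, 101 and 103 CPM at 24 h, against 31.3, 27.8 and 23.1 CPM at 0 h, and rose by 2.04 ± 0.34 (SE, edgeR adjusted p = 0.00397). No library at 24 h overlapped with one at 0 h for either gene. Igsf10, a secreted immunoglobulin superfamily protein gene, had 220, 71.0 and 94.8 CPM at 24 h, against 66.3, 10.3 and 16.3 CPM at 0 h (log2 2.22 ± 0.35, edgeR adjusted p = 0.00291). Its levels in number 001 were above those of the other numbers at each time, and the rise was seen within each number.

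Within the same rule, the largest falls included those of Rgs16, Nat8l, Dusp5, Ccbe1, Egr3, Npnt and Vmn2r79. Rgs16, which turns off G protein signals, had 5.14, 13.7 and 11.4 CPM at 24 h, against 11.4, 86.6 and 69.0 CPM at 0 h, and fell by 2.31 ± 0.42 on the log2 scale (SE, edgeR adjusted p = 0.00607). The fall was deeper in numbers 002 and 003 than in 001, and its adjusted p was 0.0578 without the 0 h library 002. Nat8l lost its call in 5 of the 6 fits that left out a library (adjusted p up to 0.169, with log2 estimates from -3.39 to -1.60) and Ccbe1 in 3 (up to 0.0659).

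Interferon-stimulated genes rose as a group. Of 30 tested members 26 rose and 0 fell, with a median log2 change of 1.54, against 0.00 over all genes tested, and 28 of the 30 did not overlap between the times (8.40% of all genes tested were higher without overlap). The 4 that did not pass were Bst2 (log2 1.18), Oasl1 (1.51), Oas1a (0.69) and Ifit2 (0.15). All 14 tested interferon-induced GTPases rose, with a median of 1.74; these proteins attack the vacuoles of intracellular microbes. The rise was seen in each pair of libraries, with a median over the stimulated genes of 2.14 in number 001, 1.17 in 002 and 1.16 in 003. The number 001 pair, with the largest of these medians, had macrophage RNA of 0.0886% at 24 h, against 0.105% at 0 h; the part of macrophage RNA in the rise was not tested.

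The promoters of Ifit1, Ifit3, Rsad2 and Igtp and their GAAA-rich elements are shown because they belong to genes that carry this response. The sequences are RefSeq windows of GRCm38.p6 (mm10) from 250 bases before to 50 bases after the annotated start, on the strand of the gene, and capitals mark each place, on either strand, where GAAA is followed after 2 bases of any kind by GAAA (read as TTTC where the element lies on the other strand). Ifit1 lies at chr19:34640639-34640938 (+), Ifit3 at chr19:34583279-34583578 (+), Rsad2 at chr12:26456403-26456702 (-) and Igtp at chr11:58199306-58199605 (+).
Ifit1: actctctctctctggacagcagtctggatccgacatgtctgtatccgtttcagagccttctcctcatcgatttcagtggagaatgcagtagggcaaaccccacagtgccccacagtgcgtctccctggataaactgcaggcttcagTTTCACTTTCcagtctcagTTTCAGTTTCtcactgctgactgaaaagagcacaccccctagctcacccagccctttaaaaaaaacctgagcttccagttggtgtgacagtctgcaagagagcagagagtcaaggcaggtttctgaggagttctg
Ifit3: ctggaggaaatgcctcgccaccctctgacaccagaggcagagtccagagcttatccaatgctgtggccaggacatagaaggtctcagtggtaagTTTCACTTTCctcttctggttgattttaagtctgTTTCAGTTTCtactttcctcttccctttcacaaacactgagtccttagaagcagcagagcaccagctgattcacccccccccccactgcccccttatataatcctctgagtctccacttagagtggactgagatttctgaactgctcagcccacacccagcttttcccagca
Rsad2: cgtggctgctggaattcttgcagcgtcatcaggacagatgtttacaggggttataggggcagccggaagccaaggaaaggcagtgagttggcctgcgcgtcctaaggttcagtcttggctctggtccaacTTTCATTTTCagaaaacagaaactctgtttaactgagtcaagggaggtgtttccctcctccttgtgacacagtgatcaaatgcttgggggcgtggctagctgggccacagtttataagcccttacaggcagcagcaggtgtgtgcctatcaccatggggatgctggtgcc
Igtp: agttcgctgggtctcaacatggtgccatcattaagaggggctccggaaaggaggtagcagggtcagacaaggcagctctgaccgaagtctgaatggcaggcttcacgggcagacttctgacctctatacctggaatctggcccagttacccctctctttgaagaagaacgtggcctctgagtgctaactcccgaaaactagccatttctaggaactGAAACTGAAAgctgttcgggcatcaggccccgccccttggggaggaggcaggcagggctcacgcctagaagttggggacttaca
The matches began 104 and 85 bases before the start in Ifit1, 156 and 122 in Ifit3, 120 in Rsad2 and 34 in Igtp. Of the 45 interferon-stimulated and GTPase genes written in the lists, 32 had a promoter in the table. Of their 35 windows, 21 (60.0%) held the element, against 1131 of 32851 windows (3.44%) over all genes. A match of these letters is a description of the window and not evidence of binding.

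**Figure D1:**
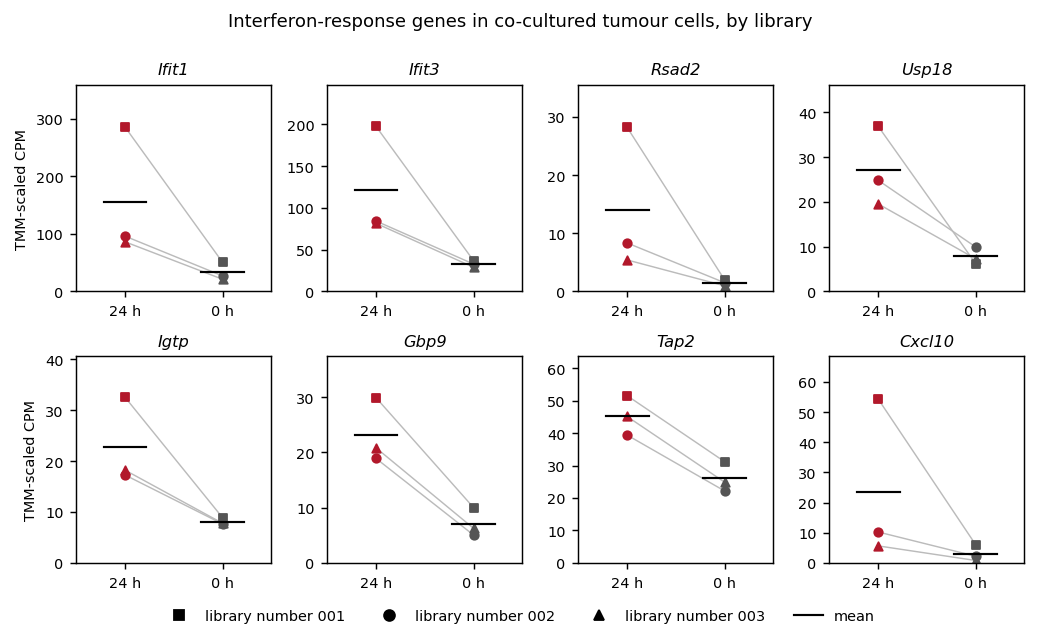
Each panel plots TMM-scaled CPM (linear axis from 0) of 1 gene in co-cultured tumour cells, with 24 h on the left and 0 h on the right, symbols for the library number, grey lines joining libraries of the same number, and bars for the mean. Each joined pair is higher at 24 h, and number 001 lies highest at 24 h in all 8 panels.

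Among the effectors, Ifit1, which binds foreign RNA, had 286, 96.2 and 86.3 CPM at 24 h, against 50.8, 27.0 and 21.2 CPM at 0 h, a log2 change of 2.17 ± 0.27 (SE, edgeR adjusted p = 0.00086). Its neighbour Ifit3 had 198, 84.3 and 81.5 CPM at 24 h, against 36.8, 32.7 and 28.9 CPM at 0 h (log2 1.83 ± 0.25, edgeR adjusted p = 0.0014). Both genes had their highest level in the 24 h library 001 and no overlap between the times. Ifit3b, a near copy of Ifit3 whose reads could be split with it, rose by 1.78 ± 0.28 (edgeR adjusted p = 0.00274) and is uncertain on its own. Usp18, which removes Isg15 from proteins and restrains interferon receptor signals, had 36.9, 24.9 and 19.6 CPM at 24 h, against 6.22, 9.94 and 7.30 CPM at 0 h (log2 1.83 ± 0.29, edgeR adjusted p = 0.00292). These 4 genes passed in every fit that left out 1 library, and also without the block. Oas2, which makes the activator of the nuclease RNase L, had 13.4, 13.7 and 14.6 CPM at 24 h, against 2.16, 4.26 and 3.77 CPM at 0 h. Its rise of 2.10 ± 0.61 (edgeR adjusted p = 0.046) was lost whichever of the 6 libraries was left out, with adjusted p up to 0.18.

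Of the factors that turn the response on, Irf7 had 40.5, 15.8 and 16.7 CPM at 24 h, against 8.72, 6.47 and 6.66 CPM at 0 h, and rose by 1.70 ± 0.30 on the log2 scale (SE). Stat2 (log2 1.28) and Irf9 (0.72), parts of the DNA-binding complex, also rose, as did the ubiquitin-like Isg15 (1.95) and the RNA sensors Ifih1 (1.39), Ddx58 (1.07) and Dhx58 (1.57). These 7 genes were chosen for their roles after their values were seen.

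Of the GTPases, Iigp1 had 33.0, 11.5 and 9.31 CPM at 24 h, against 3.11, 1.81 and 2.01 CPM at 0 h (log2 2.86 ± 0.40, edgeR adjusted p = 0.00156). Igtp had 32.5, 17.3 and 18.2 CPM at 24 h, against 8.89, 7.65 and 7.78 CPM at 0 h (log2 1.46 ± 0.24, edgeR adjusted p = 0.00325). Gbp9, a guanylate-binding protein gene, had 29.9, 18.9 and 20.8 CPM at 24 h, against 10.0, 5.05 and 6.26 CPM at 0 h (log2 1.71 ± 0.21, edgeR adjusted p = 0.000561). The lowest 24 h library was above the highest 0 h library for each of the 3 genes. Gbp4 rose by 2.64 ± 0.36 (edgeR adjusted p = 0.00101) from a very low level, 0.394 to 0.864 CPM at 0 h. The Gbp genes are a family of close copies, as are Tgtp1 (2.93) and Tgtp2 (1.87), so the share of each copy is uncertain. The number of GTPases that passed was 7 without the 0 h library 002 or 003 and 8 without the 24 h library 001, and that of stimulated genes was 13 without the 0 h library 002, 16 without 003 and 18 without the 24 h library 001. Without the block, 13 stimulated genes and 8 GTPases passed.

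Genes of antigen presentation by MHC class I had smaller changes. Of 17 members 7 rose and 0 fell, with a median of 0.54, and all 17 were above 0 in each of the 3 pairs. The transcription factor gene Irf1 had 47.2, 36.1 and 37.9 CPM at 24 h, against 30.7, 18.4 and 16.4 CPM at 0 h (log2 0.91 ± 0.18, edgeR adjusted p = 0.00858). Tap2, a subunit of the pump that brings peptides into the endoplasmic reticulum, had 51.5, 39.4 and 45.1 CPM at 24 h, against 31.2, 22.2 and 24.9 CPM at 0 h (log2 0.80 ± 0.17, edgeR adjusted p = 0.011). Neither gene overlapped between the times. The immunoproteasome genes Psmb8 (1.12), Psmb9 (1.08) and Psmb10 (0.64), of which Psmb8 is over 20 times higher in macrophages, the activator subunit gene Psme2 (0.35) and H2-T22 (0.54) made up the other 5, and H2-T22 is one of a family of near copies. The classical heavy chain genes H2-K1 and H2-D1 (log2 0.36 and 0.44) and the light chain gene B2m (0.22) did not pass. No member passed without the block or without the 0 h library 002 or 003, 1 passed without the 24 h library 001 and 2 without 003.

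Of 19 inflammatory genes 2 rose and 2 fell (median 0.03), against 4.26% higher and 5.03% lower over all genes tested. These counts are too small to describe the list as a whole, and 0 members passed without the block. Cxcl10, a chemokine that attracts T cells and is itself induced by interferon, had 54.4, 10.3 and 5.65 CPM at 24 h, against 6.04, 2.21 and 0.802 CPM at 0 h (log2 2.74 ± 0.61, edgeR adjusted p = 0.0151). Its groups overlapped, since the 24 h library 003 lay below the 0 h library 001, but each pair rose. The monocyte chemokine gene Ccl7 had 104, 126 and 142 CPM at 24 h, against 62.3, 60.7 and 64.8 CPM at 0 h (log2 0.95 ± 0.27, edgeR adjusted p = 0.0402). Ptgs2, which encodes the prostaglandin enzyme COX-2, had 135, 284 and 263 CPM at 24 h, against 344, 810 and 786 CPM at 0 h, and fell by 1.49 ± 0.18 (SE, edgeR adjusted p = 0.00079). The 3 libraries of Ptgs2 at 24 h all lay below the 3 at 0 h, and its call held in every fit that left out 1 library. Cxcl2 also fell (log2 -2.30 ± 0.51, edgeR adjusted p = 0.0143), at no more than 4.18 CPM. Calls were lost for Cxcl10 without the 24 h library 001 or the 0 h library 002 or 003 (adjusted p up to 0.104), for Ccl7 without any library but the 0 h 001 (up to 0.209), and for Cxcl2 without either library of 002 or 003 (up to 0.175).

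Of 17 genes of the IL-6 family 3 rose and 0 fell (median 0.25), against 4.26% higher and 5.03% lower over all genes tested. Il6st, the shared signal chain gp130, had 1151, 801 and 877 CPM at 24 h, against 650, 547 and 565 CPM at 0 h (log2 0.68 ± 0.09, edgeR adjusted p = 0.00104). Osmr, its partner in the oncostatin M receptor, had 172, 117 and 136 CPM at 24 h, against 111, 94.6 and 103 CPM at 0 h (log2 0.46 ± 0.12, edgeR adjusted p = 0.0352). The transcription factor gene Cebpd had 21.9, 12.5 and 18.1 CPM at 24 h, against 10.9, 6.23 and 8.02 CPM at 0 h (log2 1.06 ± 0.24, edgeR adjusted p = 0.0151). All 24 h libraries were above all 0 h libraries for the 3 genes. The other 14 members did not pass, among them Stat3 (0.25), Socs3 (0.54) and Lifr (0.62). Osmr and Cebpd lost their calls without the 24 h library 001 or the 0 h library 002 or 003, and Osmr also without the 24 h library 003, with adjusted p up to 0.184 and 0.101.

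Some cholesterol synthesis genes fell by small amounts, and some sterol export genes rose. Of the 9 enzymes of the mevalonate arm, which makes isoprenoid units, 3 fell (median -0.30), and of the 12 enzymes from squalene to cholesterol 4 fell (median -0.28); none rose. All 9 and 11 of the 12 had an estimate below 0. Insig1, which holds the SREBP complex in the endoplasmic reticulum and is itself an SREBP target, had 118, 142 and 135 CPM at 24 h, against 211, 178 and 199 CPM at 0 h (log2 -0.57 ± 0.09, SE, edgeR adjusted p = 0.00301). Its 3 libraries at 24 h all lay below the 3 at 0 h, and the call held in every fit that left out 1 library and without the block.

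Hmgcs1, a synthase early in the mevalonate arm, had 415, 400 and 365 CPM at 24 h, against 601, 427 and 447 CPM at 0 h (log2 -0.30 ± 0.09, edgeR adjusted p = 0.0388). The 0 h library 001 was the highest and the groups did not overlap. Hmgcs1 kept its call in only 1 of the 6 fits that left out a library (edgeR adjusted p up to 0.206). In libraries 002 and 003 alone its log2 estimate was -0.19 (edgeR adjusted p = 0.0667). Idi1, Cyp51, Msmo1 and Sqle fell by 0.52, 0.39, 0.37 and 0.30 on the log2 scale. The fall was largest in number 001, where the squalene arm had a median of -0.46, against -0.10 in 002 and -0.27 in 003. No enzyme of either arm passed without the block, without the 24 h library 001 or without the 0 h library 003, and 1 of each arm passed without the 0 h library 002. In libraries 002 and 003 alone 2 of 9 and 4 of 12 fell. The promoter of Hmgcs1 is shown as the 1 window of 35 (2.86%), from 26 of the 36 genes of the sterol lists, that held the letters TCACNCCAC on either strand, against 408 of 32851 windows (1.24%) over all genes. It lies at chr13:119690101-119690400 (+) in GRCm38.p6 (RefSeq), and capitals mark the match, which begins 137 bases before the start.
Hmgcs1: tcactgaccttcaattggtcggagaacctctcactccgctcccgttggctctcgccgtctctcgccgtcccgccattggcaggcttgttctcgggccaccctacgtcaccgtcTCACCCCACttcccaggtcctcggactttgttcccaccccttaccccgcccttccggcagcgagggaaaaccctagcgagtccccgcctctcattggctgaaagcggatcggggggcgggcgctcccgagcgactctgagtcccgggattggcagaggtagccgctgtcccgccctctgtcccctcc

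On the export side, Abca1, which loads cholesterol onto lipoproteins, had 107, 98.4 and 118 CPM at 24 h, against 64.5, 62.7 and 76.2 CPM at 0 h (log2 0.67 ± 0.13, edgeR adjusted p = 0.00929). Mylip, a ubiquitin ligase gene and LXR target, had 19.8, 18.0 and 19.6 CPM at 24 h, against 10.4, 7.57 and 6.42 CPM at 0 h (log2 1.24 ± 0.18, edgeR adjusted p = 0.00129). All 3 libraries at 24 h were above all 3 at 0 h for both genes. Abcg1, a second exporter, had 0.652, 15.3 and 16.7 CPM at 24 h, against 0.259, 7.26 and 4.65 CPM at 0 h (log2 1.44 ± 0.38, edgeR adjusted p = 0.0307). Abcg1 was over 20 times higher in macrophages than in tumour cells grown alone at 0 h, and macrophage RNA was low in number 001 as Abcg1 was; its part in the rise was not tested. The other 8 of 11 LXR genes did not pass, including the macrophage-high Apoe (log2 0.93, edgeR adjusted p = 0.0513) and Srebf1 (0.04). Abca1 lost its call without the 0 h library 002 (adjusted p = 0.0713), and Abcg1 in 5 of the 6 fits that left out a library (up to 0.229).

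Of 17 fatty acid oxidation genes 5 rose and 0 fell (median 0.25), and few genes of fatty acid synthesis and storage passed. Cpt1a, the enzyme that admits fatty acids to mitochondria, had 174, 123 and 142 CPM at 24 h, against 130, 77.1 and 78.9 CPM at 0 h (log2 0.64 ± 0.13, edgeR adjusted p = 0.01). Its 24 h library 002 lay below the 0 h library 001, so the groups overlapped, and the rise is within numbers. Cpt1c, Cpt2, the carnitine carrier gene Slc25a20 and the electron carrier gene Etfa rose by 0.34, 0.40, 0.34 and 0.26. None of the 17 passed without the block or without the 0 h library 002 or 003, and 12 rose in libraries 002 and 003 alone. In synthesis and desaturation 1 of 14 changed (Acly, log2 -0.37), and in lipid uptake and droplets 1 of 19 (Soat1, -0.41). The desaturase gene Scd2 had 3740.4, 2619.5 and 2707 CPM at 24 h, against 4244, 2501 and 2841 CPM at 0 h (log2 -0.06 ± 0.10, edgeR adjusted p = 0.74), and Plin2, which coats lipid droplets, had 176, 226 and 241 CPM, against 223, 244 and 266 CPM (log2 -0.20 ± 0.07, adjusted p = 0.0861). In the edgeR fit of all tumour libraries and in DESeq2 no lysosomal gene of 25 passed, with 2 higher at an unadjusted p under 0.05 by edgeR; 1 rose in the edgeR fit of the compared groups only, 1 without the 0 h library 001 and 2 in libraries 002 and 003 alone.

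**Figure D2:**
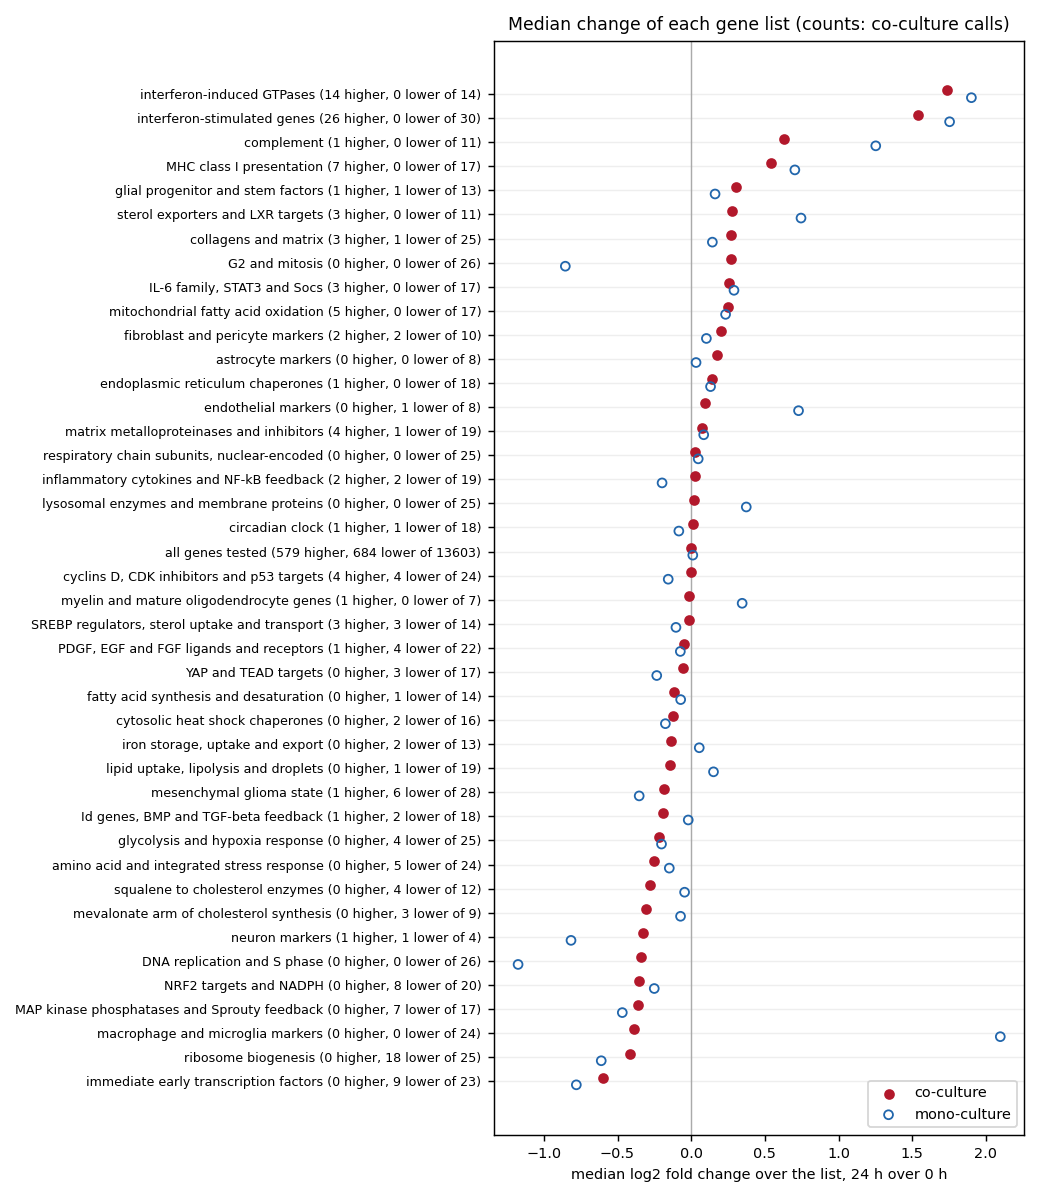
Each row is a gene list, with the median log2 fold change (24 h over 0 h) in co-culture as a filled red dot and in mono-culture as an open blue circle, and the labels count members higher and lower in co-culture. The 2 interferon lists lie furthest to the right in co-culture (1.74 and 1.54), immediate early genes furthest to the left (-0.60), and all genes tested at 0.00.

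Feedback genes of growth signalling fell in part. Of 17 MAP kinase phosphatase, Sprouty and ETS genes 7 fell and 0 rose (median -0.36), and of 23 immediate early transcription factors 9 fell and 0 rose (median -0.60). Dusp5, a nuclear phosphatase that acts on ERK, had 8.48, 17.3 and 16.9 CPM at 24 h, against 28.7, 74.5 and 78.2 CPM at 0 h, and fell by 2.05 ± 0.22 (SE, edgeR adjusted p = 0.000551). Etv4, an ETS factor induced by ERK, had 11.5, 18.7 and 14.0 CPM at 24 h, against 28.3, 43.9 and 37.2 CPM at 0 h (log2 -1.30 ± 0.17, edgeR adjusted p = 0.00086). For both genes the highest 24 h library lay below the lowest 0 h library. Dusp4, Dusp10 and Phlda1 fell by 1.61, 1.09 and 1.06, Dusp1 by 0.62 and Spry2 by 0.54. The main ERK phosphatase gene Dusp6 (-0.36) and Spry4 (-0.39) did not pass. Without the block 3 of the 17 fell, and 4 fell without the 24 h library 001 or 003 or without the 0 h library 002 or 003.

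**Figure D3:**
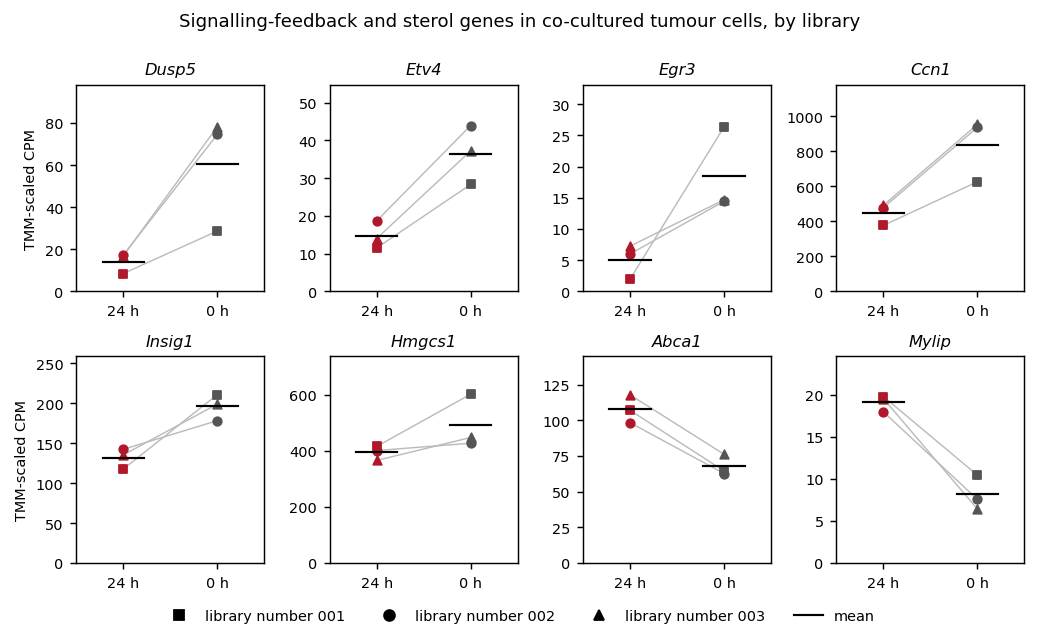
Each panel plots TMM-scaled CPM (linear axis from 0) of 1 gene in co-cultured tumour cells, 24 h on the left and 0 h on the right, with symbols for the library number, grey lines joining libraries of the same number and bars for the mean. The 6 genes from Dusp5 to Hmgcs1 are lower at 24 h in each joined pair, and Abca1 and Mylip are higher.

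Among the immediate early factors, Fosl1 had 10.7, 26.5 and 22.2 CPM at 24 h, against 30.7, 61.5 and 58.2 CPM at 0 h (log2 -1.34 ± 0.24, edgeR adjusted p = 0.00528). Klf6 had 178, 249 and 260 CPM at 24 h, against 269, 407 and 428 CPM at 0 h (log2 -0.68 ± 0.08, edgeR adjusted p = 0.000551). Maff, a small leucine zipper factor, had 10.9, 10.3 and 10.5 CPM at 24 h, against 19.5, 25.7 and 26.6 CPM at 0 h (log2 -1.17 ± 0.20, edgeR adjusted p = 0.00341). These 3 genes fell within each number and held in every fit that left out 1 library. Egr3 had 1.96, 6.00 and 7.24 CPM at 24 h, against 26.3, 14.4 and 14.7 CPM at 0 h (log2 -1.77 ± 0.50, edgeR adjusted p = 0.0404), and lost its call whichever library was left out (adjusted p up to 0.166). Fos (-0.24), Junb (-0.19) and Atf3 (-1.04) did not pass. The letters of the AP-1 element, TGANTCA, were in 0 of 41 promoter windows of these 2 gene lists, against 2565 of 32851 windows (7.81%) over all genes, which says only that they are not in these windows. Without the block 1 of the 23 fell. With 1 library left out 5 or 6 did, and 5 was the count without the 0 h library 002 or 003.

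Of 22 PDGF, EGF and FGF ligand and receptor genes 1 rose and 4 fell (median -0.05), against 4.26% higher and 5.03% lower over all genes tested. Hbegf had 20.7, 36.9 and 32.0 CPM at 24 h, against 63.7, 129 and 107 CPM at 0 h, and fell by 1.73 ± 0.18 (SE, edgeR adjusted p = 0.000446). Ereg, a second EGF receptor ligand, had 14.6, 36.0 and 40.1 CPM at 24 h, against 32.3, 87.2 and 81.7 CPM at 0 h (log2 -1.14 ± 0.23, edgeR adjusted p = 0.00922). The third, Areg, fell by 1.95 ± 0.52 (edgeR adjusted p = 0.0307) at levels no higher than 1.76 CPM. Hbegf did not overlap between the times, whereas Ereg did through the low 0 h library 001. Pdgfra, the receptor through which PDGF drives glial progenitors, had 196, 181 and 176 CPM at 24 h, against 126, 120 and 118 CPM at 0 h (log2 0.61 ± 0.09, edgeR adjusted p = 0.00156). Its 3 libraries at each time lay within a narrow range, and the call held in every fit that left out 1 library and without the block. The ligand gene Pdgfa fell by 0.34, and Egfr (0.29) and Pdgfrb (0.14) did not pass. Mouse Pdgfb had 0.652, 3.00 and 2.78 CPM at 24 h, against 1.38, 8.20 and 6.18 CPM at 0 h (log2 -1.25 ± 0.39, adjusted p = 0.0614), and it is a macrophage-high gene. Ereg lost its call without the 0 h library 002 or 003 (adjusted p up to 0.0774), and Areg in 5 of the 6 fits (up to 0.148).

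Of 17 targets of the Hippo pathway factor YAP 3 fell and 0 rose (median -0.05), and of 18 Id, BMP and TGF-beta genes 2 fell and 1 rose (median -0.19), against 5.03% lower and 4.26% higher over all genes tested. These counts are too small to describe either list as a whole. Smad7, the inhibitory Smad, had 23.4, 28.1 and 29.4 CPM at 24 h, against 39.4, 59.0 and 58.9 CPM at 0 h (log2 -0.95 ± 0.09, edgeR adjusted p = 0.000378). The matricellular genes Ccn1 and Ccn2 fell by 0.89 ± 0.11 and 1.32 ± 0.17 (SE, edgeR adjusted p = 0.000551 and 0.000822). Ccn2 had 449, 552 and 632 CPM at 24 h, against 912, 1666 and 1584 CPM at 0 h. Smad7, Ccn1 and Ccn2 each had all 24 h libraries below all 0 h libraries, and their calls held in every fit that left out 1 library and without the block. Ankrd1 fell by 1.42, and Id3, an inhibitor of helix-loop-helix factors, rose by 0.95 ± 0.25 (SE, edgeR adjusted p = 0.0292). Ankrd1 lost its call without the 24 h library 001 or the 0 h library 002 or 003 (adjusted p up to 0.101) and Id3 in 5 of the 6 fits (up to 0.172).

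Targets of NRF2, the factor that switches on antioxidant genes, fell in part. Of 20 antioxidant and NADPH genes 8 fell and 0 rose (median -0.36), and 12 of the 20 were lower without overlap (8.33% of all genes tested). Nqo1, a quinone reductase, had 103, 103 and 116 CPM at 24 h, against 204, 229 and 281 CPM at 0 h (log2 -1.14 ± 0.17, edgeR adjusted p = 0.00234). Prdx1, a peroxiredoxin, had 531, 580 and 653 CPM at 24 h, against 710, 922 and 976 CPM at 0 h (log2 -0.55 ± 0.12, edgeR adjusted p = 0.0122). The cystine carrier gene Slc7a11 (-0.67), Srxn1 (-0.64), Txnrd1 (-0.55), Taldo1 (-0.54), Gsr (-0.49) and Pgd (-0.37) made up the rest. Hmox1, which breaks down haem, had 171, 182 and 189 CPM at 24 h, against 108, 217 and 230 CPM at 0 h (log2 0.05 ± 0.23, adjusted p = 0.924), higher at 24 h in number 001 and lower in the others. The count of 8 was 1 without the block and without the 0 h library 002 or 003 or the 24 h library 003, 3 without the 24 h library 002 and 5 without either library of 001. In libraries 002 and 003 alone 14 of the 20 fell. Nqo1 passed in every one of these fits.

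Metabolic genes tied to biosynthesis fell in smaller numbers. Of 24 amino acid and integrated stress genes 5 fell and 0 rose (median -0.25): Slc7a11, the mitochondrial serine enzyme gene Shmt2 (-0.48), Psph (-0.47), Asns (-0.46) and Phgdh (-0.29). Of 25 glycolysis and hypoxia genes 4 fell and 0 rose (median -0.22): Vegfa (-0.79), Hk2 (-0.77), Pgk1 (-0.37) and Eno1 (-0.32). Vegfa, the angiogenic ligand, had 76.7, 79.3 and 61.3 CPM at 24 h, against 106, 145 and 128 CPM at 0 h (edgeR adjusted p = 0.0106), with no overlap. No call in either list held without the block. Of the amino acid genes none fell without any one library of 002 or 003 and 1 without the 0 h library 001. Of the glycolysis genes none fell without the 0 h library 002 or the 24 h library 003, 1 without the 0 h library 003 and 2 without the 24 h library 001. In libraries 002 and 003 alone 16 of the 25 glycolysis genes fell and 1 rose (median -0.34), and 11 of the 24 amino acid genes fell and 2 rose (median -0.275). In iron handling the transferrin receptor gene Tfrc fell (-0.68 ± 0.13, edgeR adjusted p = 0.00569), as did Slc25a37 (-0.39), of 13 genes. Of 16 heat shock genes Hspb1 (-0.47) and Dnajb1 (-0.24) fell, of 18 endoplasmic reticulum chaperones Creld2 (0.35) rose, and 0 of 25 respiratory chain subunits passed, with 4 at an unadjusted p under 0.05 and 2 called by DESeq2. Of these subunits 1 rose in the edgeR fit of the compared groups only, and 2 both without the 0 h library 001 and in libraries 002 and 003 alone.

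Ribosome biogenesis genes fell together, by less than 1 unit on the log2 scale each. Of 25 members 18 fell and 0 rose (median -0.42), and all 25 were below 0 within each of the 3 numbers. Myc, the factor that drives this programme, had 69.8, 109 and 112 CPM at 24 h, against 103, 200 and 194 CPM at 0 h (log2 -0.75 ± 0.11, edgeR adjusted p = 0.00185). Gnl3, a nucleolar GTPase, had 39.3, 69.2 and 64.7 CPM at 24 h, against 54.1, 95.5 and 90.4 CPM at 0 h (log2 -0.47 ± 0.08, edgeR adjusted p = 0.00496). Both genes overlapped between the times with number 001 low at both, and their changes are within numbers. The assembly factor genes Ltv1 and Pes1 fell by 0.43 and 0.28, and Rrp12, Wdr12 and Polr1b by 0.61, 0.52 and 0.52. None of the 25 passed without the block. The count was 2 without the 0 h library 002, 4 without 003, 3 without the 24 h library 001, 11 without 002 and 7 without 003, and 24 in libraries 002 and 003 alone.

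Cell cycle genes split by library number. Of 26 DNA replication genes 0 passed in the edgeR fit of all tumour libraries, with 5 lower at an unadjusted p under 0.05 and 3 lower by DESeq2, and their median was -0.34. In other edgeR fits 10 fell with the compared groups only, 4 in libraries 002 and 003 alone and 1 without the 0 h library 001. Of 26 G2 and mitosis genes 0 passed in the edgeR fit of all tumour libraries or in DESeq2, with 1 higher at an unadjusted p under 0.05 and a median of 0.27. Within number 001 all 26 mitotic genes were below 0 (median -0.52), whereas within 002 and within 003 all 26 were above 0 (median 0.62 and 0.46). Mki67, the proliferation marker, had 131, 217 and 154 CPM at 24 h, against 189, 121 and 128 CPM at 0 h (log2 0.29 ± 0.33, adjusted p = 0.633). In libraries 002 and 003 alone 15 of the 26 mitotic genes rose, and without the 24 h library 001 alone 6 did, so the mitotic result rests on whether number 001 is counted. Replication genes had medians of -0.62 in 001, -0.21 in 002 and -0.17 in 003.

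**Figure D4:**
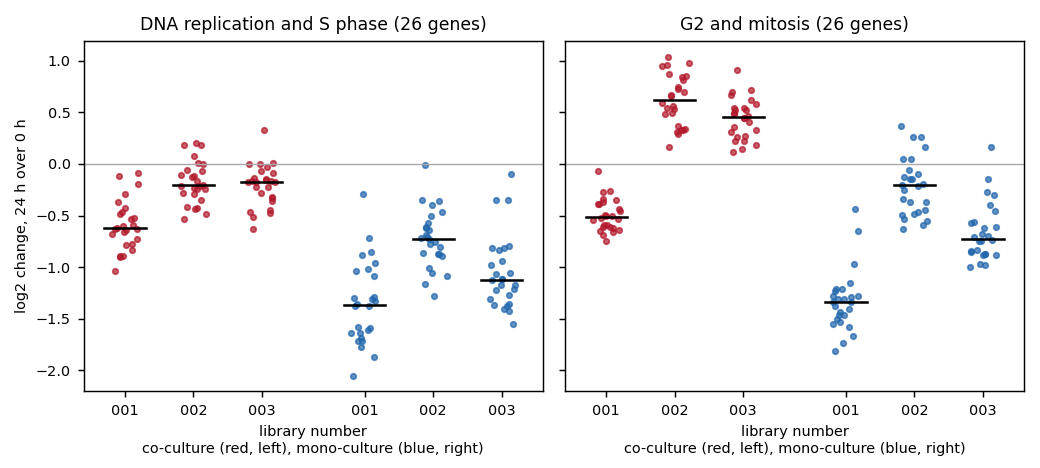
Each point is 1 gene, placed by its log2 change (24 h over 0 h) within a library number, for 26 replication genes (left panel) and 26 mitotic genes (right panel), with co-culture in red and mono-culture in blue and bars for the median. In co-culture the mitotic genes lie below 0 in number 001 and above 0 in 002 and 003, while in mono-culture the medians of all 3 numbers lie below 0.

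Regulators of the cell cycle moved in both directions. Cdkn1b, which encodes the CDK inhibitor p27, had 70.2, 47.8 and 48.1 CPM at 24 h, against 53.5, 32.5 and 29.4 CPM at 0 h (log2 0.55 ± 0.08, edgeR adjusted p = 0.0014). The p53 target and stress gene Sesn1 rose by 0.68 ± 0.10 and the cyclin gene Ccnd3 by 0.39 ± 0.07 (SE, edgeR adjusted p = 0.00193 and 0.00525). Cdkn2c, another CDK inhibitor gene, rose by 0.40. Cdkn1b, Sesn1 and Ccnd3 held in every fit that left out 1 library and were lost without the block. Other p53 targets, Mdm2, Tigar and Eda2r, went the other way and fell by 0.47, 0.44 and 0.41. Cdk6 fell by 0.47, so that 4 of 24 genes rose and 4 fell. None of the 4 that fell passed without the block or without any one of the 0 h libraries 002 and 003 and the 24 h library 002, and only 1 gene of the list fell without the 24 h library 001 or 003. Tigar lost its call in 4 of the 6 fits (adjusted p up to 0.103). Ccnd1 had 720, 822 and 870 CPM at 24 h, against 819, 946 and 860 CPM at 0 h (log2 -0.12, adjusted p = 0.404).

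Genes of the mesenchymal glioma state fell more often than they rose, with 6 lower and 1 higher of 28 (median -0.18). The shares over all genes tested were 5.03% lower and 4.26% higher. Cd44, the hyaluronan receptor used as its marker, had 635, 1275 and 1216 CPM at 24 h, against 999, 2733 and 2497 CPM at 0 h (log2 -0.95 ± 0.16, edgeR adjusted p = 0.00424). Plaur, the urokinase receptor gene, had 11.1, 16.7 and 16.5 CPM at 24 h, against 25.9, 54.2 and 55.4 CPM at 0 h (log2 -1.58 ± 0.20, edgeR adjusted p = 0.00086). Both fell within each number, and Cd44 overlapped between the times through the low 0 h library 001. Fosl1, the matrix gene Tnc (-0.83) and Emp3 (-0.28) also fell, and Cebpd rose. Vim had 3589, 3675 and 3569 CPM at 24 h, against 4227, 4457 and 4192 CPM at 0 h (log2 -0.25 ± 0.09, adjusted p = 0.0798), and Lgals1, Anxa1 and S100a4 had estimates from -0.01 to 0.07. Without the block no member passed. Without the 0 h library 002 or 003, or the 24 h library 003, 3 fell. Of 13 progenitor genes Pdgfra rose and Cspg4 fell (-0.46), and Sox2 had 18.4, 23.5 and 20.8 CPM at 24 h, against 19.8, 16.9 and 16.5 CPM at 0 h (log2 0.24, adjusted p = 0.35).

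Aspn and Ogn, which encode small leucine-rich matrix proteins, rose and lie in one stretch of chromosome 13. Aspn had 413, 48.0 and 45.3 CPM at 24 h, against 126, 7.81 and 6.58 CPM at 0 h (log2 2.14 ± 0.28, edgeR adjusted p = 0.00104). Ogn, at chr13:49608046-49624501 (mm10) near Aspn at chr13:49544443-49567565, had 933, 139 and 170 CPM at 24 h, against 302, 39.0 and 32.2 CPM at 0 h (log2 1.89 ± 0.29, edgeR adjusted p = 0.0026). Number 001 was far above the others at each time for both genes, so the groups overlapped and the rise is within numbers. Other members of the cluster, Omd between them (log2 0.93, edgeR adjusted p = 0.0235) and Ecm2 (1.21, adjusted p = 0.036), also rose, whereas Cenpp, whose locus spans the cluster, had a log2 estimate of 0.27 (adjusted p = 0.672). Omd, Ecm2 and Cenpp were looked up for their position after the values were seen. Dcn, a related proteoglycan gene on chromosome 10, had 39.1, 55.7 and 64.5 CPM at 24 h, against 11.2, 15.9 and 15.7 CPM at 0 h (log2 1.89 ± 0.43, edgeR adjusted p = 0.0165), and Postn rose by 1.00 ± 0.28. Of 25 collagen and matrix genes 3 rose and 1 fell (Col4a2, -0.44), against 4.26% higher and 5.03% lower over all genes tested. The fibrillar genes Col1a1 (-0.06) and Col1a2 (0.27) did not pass. Dcn lost its call in 4 of the 6 fits (adjusted p up to 0.103) and Postn in 4 (up to 0.233).

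Among proteases, the aggrecanase genes Adamts4 and Adamts5 rose by 1.02 ± 0.17 and 1.14 ± 0.19 (SE, edgeR adjusted p = 0.00342 and 0.00435). Adamts5 had 130, 71.5 and 93.0 CPM at 24 h, against 55.3, 34.2 and 44.2 CPM at 0 h, with no overlap. Mmp10, a stromelysin gene, had 0.0815, 0.400 and 0.954 CPM at 24 h, against 0.259, 8.20 and 15.6 CPM at 0 h (log2 -3.97 ± 0.51, edgeR adjusted p = 0.00086), and was near 0 in number 001 at both times. Tagln, an actin-binding protein gene of smooth muscle, had 306, 339 and 283 CPM at 24 h, against 443, 920 and 750 CPM at 0 h (log2 -1.15 ± 0.19, edgeR adjusted p = 0.00342), and the actin gene Acta2 fell by 0.91. With the rises of Dcn and Thy1 (0.60), 2 of 10 fibroblast and pericyte markers rose and 2 fell, so the list did not move one way. Acta2 lost its call in 4 of the 6 fits that left out a library (adjusted p up to 0.103) and Thy1 in 5 (up to 0.179).

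Markers of other cells gave few calls. None of the 24 macrophage markers passed in the edgeR fit of all tumour libraries or in DESeq2 (edgeR median -0.39, 4 lower at an unadjusted p under 0.05), whereas 4 fell in the edgeR fit of the compared groups only and 1 in libraries 002 and 003 alone. Their summed level was 43.3, 1940 and 2017 CPM at 24 h, against 29.0, 2454 and 1636 CPM at 0 h, and the groups overlapped. Of the 432 genes tested that were over 20 times higher in macrophages, 12 were among the 1263 called (9.28% of all genes tested), 3 higher and 9 lower. With those genes left out before the test, 602 genes rose and 680 fell. Myelin genes, which would trace RNA carried by the debris, gave 1 call of 7 (Cnp, log2 0.42). Mbp had 2.53, 4.53 and 5.57 CPM at 24 h, against 2.33, 6.31 and 4.49 CPM at 0 h (log2 -0.04, adjusted p = 0.971). Lymphocyte markers summed to at most 0.165 CPM in any of the 6 libraries, and none of the 12 reached the level needed for a test. Of astrocyte markers 0 of 8 passed, with 2 at an unadjusted p under 0.05, 1 higher by DESeq2, 2 higher in libraries 002 and 003 alone and 2 of 6 in the edgeR fit of the compared groups only. Of endothelial markers Flt1 fell (-0.48) of 8, and of neuron markers Map2 rose (0.63) and Tubb3 fell (-0.62) of 4. Of 18 clock genes Nfil3 fell (-0.40) and Hlf rose (1.54), and of 11 complement genes Serping1 rose (1.31).

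The same line grown alone (3 libraries at 24 h and 3 at 0 h, with the same labels for treatment) gave the change without added macrophages. In mono-culture 3793 genes (27.9%) passed between 24 h and 0 h, 1757 (12.9%) higher and 2036 (15% of genes tested) lower. Of the genes called in co-culture 1030 were called in the same direction in mono-culture, which is 81.6% of the co-culture calls and 27.2% of the mono-culture calls, and 4 were called in opposite directions. The 2 comparisons share no library. Ifit1 changed by 2.17 ± 0.27 in co-culture and 2.38 in mono-culture, and Dusp5 by -2.05 and -2.50. The interferon-stimulated genes had 26 of 30 members higher in co-culture and 29 of 30 in mono-culture, with medians of 1.54 and 1.75.

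The difference between the cultures was tested directly as the change in co-culture minus the change in mono-culture. It passed for 28 genes (0.206%), with a higher change in co-culture for 1 (0.00735%) and a lower change for 27 (0.198%). Of the 28 genes, 25 were over 20 times higher in macrophages. That label compares macrophages with tumour cells grown alone at 0 h, and the latter also enter the difference. The overlap is therefore partly built in. None passed when such genes were left out, a fit that drops these 25 of the 28 and so cannot tell a cause. In the fit of all genes 1341 of the 13603 had an unadjusted p under 0.05, and DESeq2 called 87. No interferon, sterol, NRF2, ribosome or MAP kinase gene of the lists was among the 28. Macrophage markers had a median change of -0.39 in co-culture and 2.10 in mono-culture, and the estimated macrophage RNA in mono-culture was 0.055%, 5.80% and 7.58% at 24 h, against 0.0294%, 1.22% and 1.63% at 0 h. Its part in the differences was not tested. The number was 0 without the block and without any one of the co-culture 0 h libraries 002 or 003, the co-culture 24 h libraries 002 or 003, the mono-culture 0 h libraries 002 or 003 or the mono-culture 24 h library 003. It was 9 without the co-culture 0 h library 001, 17 without the mono-culture 24 h library 002, 161 without the co-culture 24 h library 001, and 593 in libraries 002 and 003 alone.

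**Figure D5:**
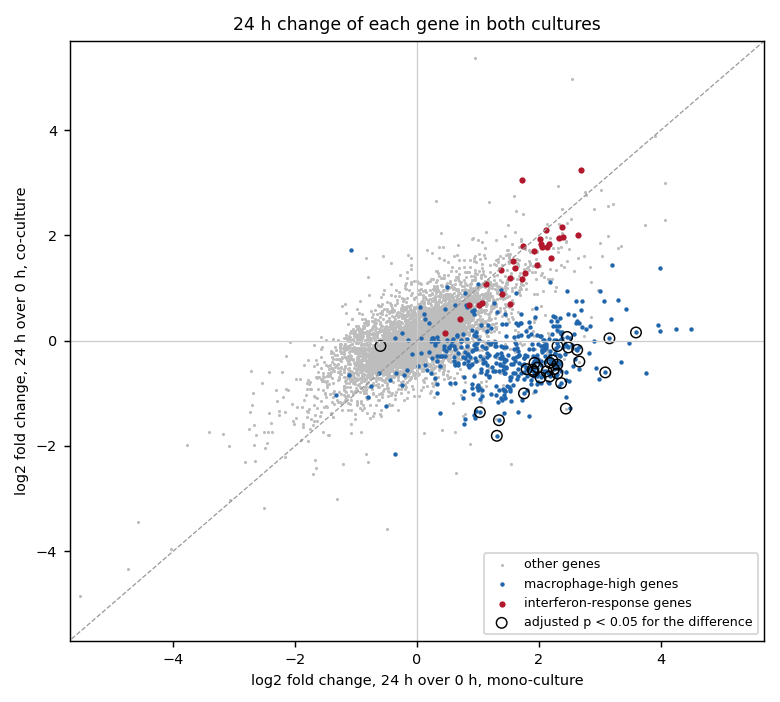
Each point is 1 gene, with its log2 fold change (24 h over 0 h) in mono-culture on the x axis and in co-culture on the y axis. The dashed line marks equal change, and blue points are genes over 20 times higher in macrophages. Red points are the interferon-stimulated genes, without the interferon-induced GTPases, which are not marked apart. Ringed points are the 28 genes called for the difference. Ringed points lie below the line except for 1 (AI506816, at -0.60 in mono-culture and -0.10 in co-culture), and red points lie to the right of 0 on the x axis and above 0 on the y axis.

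Several groups had different counts in the cultures without a difference that passed. Replication genes had 0 of 26 called in co-culture and 25 lower in mono-culture (median -0.34 and -1.18). Their median difference was 0.79, with 0 genes called for it by edgeR. At an unadjusted p under 0.05, 22 had a higher change in co-culture. Mitotic genes had medians of 0.27 in co-culture and -0.85 in mono-culture, a median difference of 1.10, with 0 called for it by edgeR. At an unadjusted p under 0.05, 21 had a higher change in co-culture. Lysosomal genes had 0 of 25 higher in co-culture and 14 in mono-culture (median 0.02 and 0.37). Their median difference was -0.28, with 0 called for it by edgeR. At an unadjusted p under 0.05, 5 had a lower change in co-culture. Cholesterol synthesis had 7 of 21 enzymes lower in co-culture, against 2 in mono-culture, with a median difference of -0.14 in the mevalonate arm and -0.21 in the squalene arm. None of the 21 was called for the difference by edgeR, and 2 of the squalene arm had a lower change in co-culture at an unadjusted p under 0.05.

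At 6 h little had passed the test in co-culture. The 6 h comparison shares the 0 h libraries with the 24 h one, so the values are set side by side only. At 6 h 28 genes (0.206%) passed, 11 higher (0.0809%) and 17 lower (0.125%), with 1754 at an unadjusted p under 0.05. The count was 0, 2, 5, 6, 13 and 18 in the fits that left out the 6 h library 002, the 0 h library 002, the 0 h library 001, the 6 h library 003, the 0 h library 003 and the 6 h library 001. The mean level of Ccn1 was 839 CPM at 0 h. It was 477 CPM at 6 h and 449 CPM at 24 h, and was lower than at 0 h at both times. Dusp8, a phosphatase for stress kinases, changed by -1.11 at 6 h and -0.78 at 24 h, and the phosphatase regulator Ppp1r15a by -0.56 and -0.80. Edn1 (-1.83 and -1.36), Srrm4 (-1.27 and -1.01), Inhba (-0.53 and -0.45) and Nfil3 (-0.73 and -0.40) also passed at both times in the same direction. Ttc39b (0.42 and -0.26) and Bdkrb2 (0.75 and -0.53) passed at both times in opposite directions. These 9 genes, all that passed at both times, were chosen after the values were seen. The interferon-stimulated genes had a median of 0.15 at 6 h, with 0 of 30 called by edgeR and 3 higher at an unadjusted p under 0.05, and a median of 1.54 at 24 h, and Pdgfra had a log2 estimate of 0.30 at 6 h.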

How the data were processed

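RNA of sorted mouse tumour cells was sequenced after oligo-dT priming and template switching, per the labels' protocols, from 20.000 to 100.000 cells. The values are raw counts per gene (29883 genes), which the authors deposited as 1 table of 36 libraries. The build is mm10, per the submitters' processing notes, whereas aligner, counter and strand use were not given in the sources used here. Overlapping genes and near copies are therefore uncertain.

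Groups and numbers were taken from the titles. The 18 tumour libraries (7964334 to 15319104 counts) entered 1 fit in edgeR 4.0.16 (R 4.3.3, limma 3.58.1) with TMM, filterByExpr and robust quasi-likelihood dispersions, with the library number as a block. The fit left 13603 genes, 12329 of them protein-coding, and 10 residual degrees of freedom. The biological coefficient of variation was 0.114, against 0.225 without the block. A Benjamini-Hochberg adjusted p under 0.05 made a call. The labels do not say what the number marks. Deviations from group means correlated between same-numbered 24 h and 0 h libraries at 0.838, 0.582 and 0.568, all above the limit of 0.1, but libraries 002 and 003 correlated with each other as closely (0.615 and 0.635), so the pairing rests mainly on 001 against the rest.

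Named genes were, per direction, the 8 largest called changes with a mean of at least 10 CPM in a group, the same sign in each number and a level not over 20 times higher in macrophages, the 4 called members with the smallest p of each list that had 3 or more calls, and fixed genes. Further list members are named where they complete a count, and some genes of the rule are not reported here. The 42 lists hold 790 genes, of which 779 were in the table and 701 were tested; the others were not analysed here or too low. Members and lists were chosen with earlier results of these data known. The test was checked on simulated counts of 13470 genes for the 24 h comparison in co-culture. Of 100 genes changed by 1 log2 unit 92 were recovered, and of 100 changed by 0.5, 53. Of 151 calls 6 were false. The counts were drawn from the fitted model itself, with its block and dispersions, and the changed genes were above a minimum level. The check therefore cannot give the error rate where library numbers respond differently, as they did for mitotic genes. Alternatives were no block, only the groups compared, DESeq2 1.42.0, RLE factors, no low-count filter, non-robust dispersions, numbers 002 and 003 alone, macrophage-high genes left out, and each library left out in turn. Promoter windows came from RefSeq (GRCm38.p6), 250 bases before to 50 after the start.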

Additional observations from a re-analysis of the deposited data

Results flagged for a closer look

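The change at 24 h differed between co-culture and mono-culture, by a test of the difference itself, for 28 genes. Among them the leukocyte genes Fcgr2b (log2 difference -3.06), Itgam (-2.79), Fcer1g (-2.59), Adgre1 (-2.60), Cybb (-2.35) and Ptprc (-2.34) had a lower 24 h change in co-culture. This is a difference in change and not in level. The mean of Adgre1 was 19.6 CPM at 24 h and 26.8 CPM at 0 h in co-culture, against 26.4 and 5.74 CPM in mono-culture. Adgre1 changed by -0.42 in co-culture and 2.18 in mono-culture. Macrophage RNA estimated by the marker median was higher at 24 h than at 0 h in each mono-culture number. By the 50 macrophage genes chosen from these data it was higher at 24 h in mono-culture numbers 002 and 003. In number 001 this measure was close to 0 at both times, 0.00138% at 24 h against 0.00453% at 0 h. AI506816, which is not macrophage-high, had a log2 difference of 0.50 ± 0.09 (edgeR adjusted p = 0.0372): it changed by -0.10 in co-culture and -0.60 in mono-culture. Fcgr2b was at -0.40 in co-culture with every pair below 0, while every mono-culture pair was above 0; that opposition of pairs was not itself a test. A check for outlying samples needs 4 or more per group and could not be run on groups of 3.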

How the results depend on the processing

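The library number decided most counts. With no replicate block 107 genes passed at 24 h in co-culture (65 higher, 42 lower), 1424 in mono-culture (498 and 926), 2 at 6 h (1 and 1) and 0 for the difference between cultures (0 and 0). With only the groups compared the counts were 2305 (1084 and 1221) at 24 h, 1 (0 and 1) at 6 h and 137 (13 and 124) for the difference. In libraries 002 and 003 alone they were 3143 (1547 and 1596), 458 (198 and 260) and 593 (316 and 277). DESeq2 gave 158 (64 and 94) at 6 h and 87 (18 and 69) for the difference. With no low-count filter 453 genes fell at 24 h, 19 rose at 6 h and 2 were higher for the difference, and with macrophage-high genes left out the difference had 0 (0 and 0). Leaving out 1 library gave 217 to 1640 genes at 24 h (106 to 861 higher, 111 to 779 lower), 0 to 18 at 6 h (0 to 10 and 0 to 8), 0 to 161 for the difference (0 to 73 and 0 to 88), and 2125 to 3512 in mono-culture (901 to 1668 and 1224 to 1844). The causes were not tested. Mean macrophage RNA ranged from 2.93% to 5.80% at 24 h and from 3.19% to 7.76% at 0 h when 1 library was left out.

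Of 98 named called genes, 27 passed without the block, 96 in libraries 002 and 003 alone and 96 by DESeq2, which gave no adjusted p for Areg and Cxcl2. Of the genes named as not passing, Hmox1 reversed to -0.0352 without the block and to -0.26 in libraries 002 and 003 alone (edgeR adjusted p = 0.01), and ranged from -0.18 to 0.19 with 1 library left out. Scd2 reversed to 0.00322 in libraries 002 and 003 alone. With 1 library left out Mbp ranged from -0.17 to 0.14 and Mki67 from -0.0922 to 0.67. The recovery of small changes at this depth is given with the processing.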
